A study of Mus musculus with 12 samples.

Results

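The 10 glycolysis genes Slc2a1, Hk1, Hk2, Pfkp, Aldoa, Tpi1, Gapdh, Pgam1, Eno1 and Ldha were examined in ChIP-seq peak lists of mouse melanoma cells. For each gene, all deposited peaks within 20 kb of its span on mouse build mm9 were taken. The 10 windows measured 44 to 151 kb and 709 kb in total, and held 251 of the 173601 peaks in the 10 lists. Peaks were taken by position alone. Gene spans were given to the nearest 1 kb.

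The cells were isolated from auricular tumours of iBIP mice, which carry the transgenes TetO-BRAFV600E, Rosa26-rtta and Tyr-CreERT2 and the alleles INK/ARFL/L and PTENL/L on a mixed FVB and B6 background. Tyr-CreERT2 places the Cre recombinase under a melanocyte promoter. WT cells came from iBIP;KMT2D+/+ mice and mutant cells from iBIP;KMT2DL/L mice, so both groups carry all the other alleles. Doxycycline, and 4-OHT at 1 uM on the ears, started the tumours, and the cells were kept in high-glucose DMEM. Neither the age nor the number of the animals is given in the sources used here. The 12 samples comprise 5 histone marks and an input per genotype, with 1 library each. No difference below therefore has a replicate check, and no p-value is given. The lists hold 5358 to 26353 peaks. Read depth is unknown, so a missing peak means only that none passed the authors' threshold. Scores are the authors' own and are read only within a list, apart from stricter thresholds set alike for both genotypes. For H3K4me1, H3K27ac and H3K4me3 they read as 10 times −log10 p.

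Glycolysis splits glucose into pyruvate, and many tumours run it at a high rate even with oxygen present, ending in lactate. Slc2a1 encodes the glucose transporter GLUT1, Hk1 and Hk2 the hexokinases that trap glucose in the cell, and Pfkp a platelet-type phosphofructokinase. Aldoa, Tpi1, Gapdh, Pgam1 and Eno1 encode the enzymes aldolase A, triosephosphate isomerase, glyceraldehyde-3-phosphate dehydrogenase, phosphoglycerate mutase and enolase. Ldha encodes lactate dehydrogenase A, which turns pyruvate into lactate. KMT2D, a methyltransferase, adds H3K4me1, the mark of enhancers. H3K27ac marks active enhancers and promoters, H3K4me3 promoters, H3K79me2 the transcribed body of active genes, and H3K27me3 chromatin silenced by Polycomb.

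The sequences upstream of 4 gene starts are shown because H3K4me3 picked out 1 of the 2 starts of Hk1, and because Hk2 and Ldha held matches to ACGTG, the core of the hypoxia response element. All 10 genes matched the RefSeq promoter table (GRCm38.p6). Each line is the 250 bases before a start, 5′ to 3′ on the gene's strand. Capitals mark ACGTG and GGGCGG, a GC box, on either strand.
Hk1, first start: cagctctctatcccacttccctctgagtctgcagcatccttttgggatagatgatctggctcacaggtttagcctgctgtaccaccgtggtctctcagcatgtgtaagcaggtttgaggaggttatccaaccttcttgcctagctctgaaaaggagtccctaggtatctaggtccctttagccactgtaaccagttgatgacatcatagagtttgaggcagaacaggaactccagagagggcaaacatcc
Hk1, second start: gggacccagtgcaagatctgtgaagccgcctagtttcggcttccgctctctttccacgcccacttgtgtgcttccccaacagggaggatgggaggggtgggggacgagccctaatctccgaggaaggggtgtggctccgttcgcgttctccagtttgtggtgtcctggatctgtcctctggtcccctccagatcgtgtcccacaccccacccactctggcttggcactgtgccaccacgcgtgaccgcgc
Hk2: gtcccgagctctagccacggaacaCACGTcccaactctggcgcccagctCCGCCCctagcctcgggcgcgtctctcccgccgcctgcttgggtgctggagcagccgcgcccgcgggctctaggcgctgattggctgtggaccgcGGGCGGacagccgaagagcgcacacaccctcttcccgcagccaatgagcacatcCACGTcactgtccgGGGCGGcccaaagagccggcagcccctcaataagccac
Ldha, first start: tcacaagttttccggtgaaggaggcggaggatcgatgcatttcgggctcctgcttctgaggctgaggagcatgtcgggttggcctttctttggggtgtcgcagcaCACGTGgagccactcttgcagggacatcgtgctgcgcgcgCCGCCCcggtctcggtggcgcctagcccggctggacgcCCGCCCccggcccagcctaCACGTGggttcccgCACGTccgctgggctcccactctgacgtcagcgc

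The first Hk1 sequence has 1 CpG and 49.6% GC, and the second has 14 CpGs and 62.8% GC. Hk2 and the first Ldha start each have 25 CpGs, the highest count among the 16 RefSeq starts of the 10 genes. The median was 15 CpGs over these 16 starts and 6 over all 32851 promoters of the table. ACGTG on either strand was present before 6 of the 16 starts, in 5 genes, and in 16.6% of all promoters. Those genes were Slc2a1, Hk2, Aldoa, Pgam1 and Ldha. CACGTG, which contains ACGTG, occurred before the first Ldha start alone among these 16 and in 6.02% of all promoters. GGGCGG was found before 9 starts in 7 genes, against 32.7% of all promoters. CCAAT was found before 6 starts in 4 genes (33.8% of all promoters), CATGTG before the first Hk1 start (12.3%) and TATAAA before none of the 16 starts (12.4%). These matches describe letters only.

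H3K4me3 lay over a RefSeq start of 9 genes in both genotypes. At Pgam1 it began 0.15 kb (WT) and 0.20 kb (mutant) after the start, less than the 1 kb to which spans were rounded. The best-scoring H3K4me3 peak touching each gene span, a choice made after the values were seen, was 2902 to 6525 bp wide in WT, with a median of 4152 bp. In the mutant these peaks were 2969 to 4609 bp wide, with a median of 3796 bp. The WT peak was the wider one at 7 genes and the mutant peak at 3. Eno1 counts among the 7, though its mutant list held separate peaks of 4149 and 2720 bp. The whole lists went the other way, with a median H3K4me3 width of 1866 bp for WT cells and 2154 bp for mutant cells. Peaks of at least 4000 bp made up 5.71% of the WT list and 7.68% of the mutant list.

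Hk1 showed which of its starts carried the mark. RefSeq lists 2 starts for this gene, 39.5 kb apart. The H3K4me3 peak lay from 38.73 to 42.39 kb into the span in WT and from 38.73 to 42.24 kb in the mutant, over the second start. No H3K4me3, H3K27ac or H3K79me2 peak lay over the first start in either genotype. At Ldha the best H3K4me3 peak lay from 3.07 to 6.17 kb into the span in WT and from 2.99 to 6.33 kb in the mutant. RefSeq puts the first Ldha start 3.5 kb into the gene. The RefSeq gene is 13354 bp long and the span used here 15000 bp, so the 2 distances are not on exactly the same scale. A further H3K4me3 peak with a lower score, the one nearest the 5′ end of the span, was 1443 bp wide in WT and 2372 bp in the mutant.

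At Eno1 the H3K4me3 peak was the widest of the 10 in WT, at 6525 bp, and was split in the mutant list into peaks of 4149 and 2720 bp. Together these gave 6869 bp in the mutant window. Gapdh had 4908 bp in WT cells and 4482 bp in mutant cells, Slc2a1 4984 and 4086 bp, and Hk2 4818 and 4609 bp. Narrower H3K4me3 peaks marked Tpi1 (2902 and 2969 bp) and Pfkp (3177 and 3051 bp). Pgam1 had 4123 bp in WT cells and 3140 bp in mutant cells, and Aldoa 4180 and 4301 bp, which spanned all 3 RefSeq starts of Aldoa.

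Over the whole windows H3K4me3 covered 66298 bp in WT cells and 62735 bp in mutant cells, a ratio of 0.946. No gene reached a 2-fold difference. Across 50 kb tiles with H3K4me3 in both genotypes, the background used for all marks, 1.13% had at most 0.5 times the WT length in the mutant and 1.69% at least 2 times. The median gene ratio was 0.959 and the median tile ratio 1.07. The mark was shorter in the mutant at 8 genes in the windows and at 5 in the spans alone. The lowest ratio was at Hk1 (0.735) and the highest at Ldha (1.26). Of the 22 WT H3K4me3 peaks in the windows, 3 had no mutant peak, against 11.3% of the list. They lay inside Hk1 (1107 bp), 3′ of Tpi1 (580 bp) and 5′ of Aldoa (1817 bp). All 21 mutant peaks had a WT peak (6.18% of the mutant list had none).

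**Figure D1:**
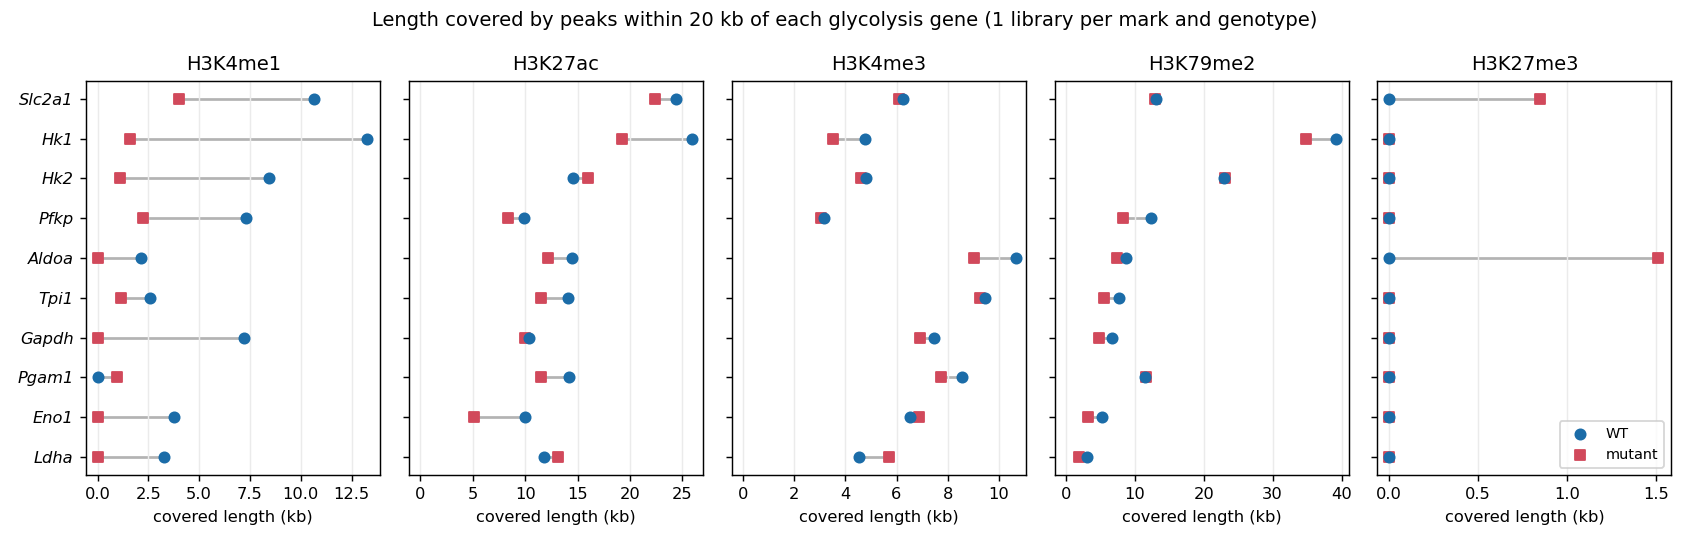
Length in kb covered by peaks of each of 5 marks (panels) within 20 kb of each gene (rows), with WT as blue circles and mutant as red squares, 1 library each. H3K4me1 is shorter in the mutant at 9 genes and longer at Pgam1, while no H3K27ac, H3K4me3 or H3K79me2 pair reaches a 2-fold difference.

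H3K4me1 was shorter in the mutant at 9 of the 10 genes. It covered 58659 bp of the windows in WT and 10992 bp in the mutant, a ratio of 0.187. With a MACS score of at least 200 in both lists the mutant kept 1331 bp, all from a peak inside Pfkp. The ratio was then 0.0301, where that of the lists was 0.180. With all peaks the ratio over the whole lists was 0.300, from 24.5 Mb in 15981 WT peaks to 7.34 Mb in 5358 mutant peaks, and what part read depth has in this difference was not tested. The median gene ratio was 0.119 over 9 genes and the median tile ratio 0, so the summed length and the medians differ from their backgrounds in opposite directions. In all 9 genes with WT H3K4me1 the mutant had at most 0.5 times the WT length. Such a difference was seen at 9 of 10 genes and in 73.2% of the tiles with the mark. Tpi1 came nearest to that limit, with a ratio of 0.443, and in its span alone the ratio was 0.977. The mutant had no H3K4me1 peak at 4 of these 9 genes, against 55.4% of tiles with WT H3K4me1. That tile share was 49.6% with tiles of 100 kb, chosen after seeing the data.

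Windows differ in size, so lengths are not compared between genes. As a share of its window, WT H3K4me1 covered 16.0% at Gapdh, 15.2% at Slc2a1, 9.40% at Hk2, 8.77% at Hk1, 7.21% at Eno1 and 6.71% at Pfkp. At the other genes it covered 5.96% or less. Slc2a1 had 5 peaks over 10641 bp in WT and 3 over 3996 bp in the mutant. Hk1 had 7 peaks over 13249 bp in WT and 1 over 1577 bp in the mutant. All 7 Hk1 peaks lay between 40.9 and 80.7 kb into the span, from the second start onward. The 1 mutant peak, from 58.38 to 59.96 kb, matched a WT peak. Hk2 had 7 peaks over 8458 bp in WT and 1 over 1108 bp in the mutant, about 5 kb inside the gene. Pfkp had 2 peaks in both genotypes, over 7317 bp in WT cells and 2218 bp in mutant cells.

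Among the enzymes after Pfkp, Aldoa, Gapdh, Eno1 and Ldha had no H3K4me1 peak in the mutant list. Eno1 had a single WT peak of 3749 bp, 3.88 to 7.62 kb inside the gene, and no mutant peak. Gapdh had 3 WT peaks over 7220 bp and no mutant peak. Ldha (2 peaks, 3280 bp) and Aldoa (2 peaks, 2152 bp) likewise had H3K4me1 peaks in WT alone. Those of Ldha lay from -2.67 to 0.67 kb around the 5′ end of the span. Those of Aldoa lay 3′ of the gene, 19.6 to 24.8 kb from its 5′ end. Tpi1 had 2593 bp in WT cells and 1150 bp in mutant cells.

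Pgam1 was the exception, with no WT H3K4me1 peak and 943 bp in the mutant, against 6.78% of tiles with at least 2 times the WT length. That peak lay about 23 kb from the 5′ end, outside the gene, at an H3K4me3 peak of both genotypes. RefSeq lists Exosc1, Zdhhc16 and Rrp12 within 20 kb of Pgam1, and the lists do not assign a peak to a gene. Aldoa has 5 protein-coding neighbours within 20 kb, Tpi1 and Gapdh 3 each, and Slc2a1, Hk2 and Eno1 none.

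**Figure D2:**
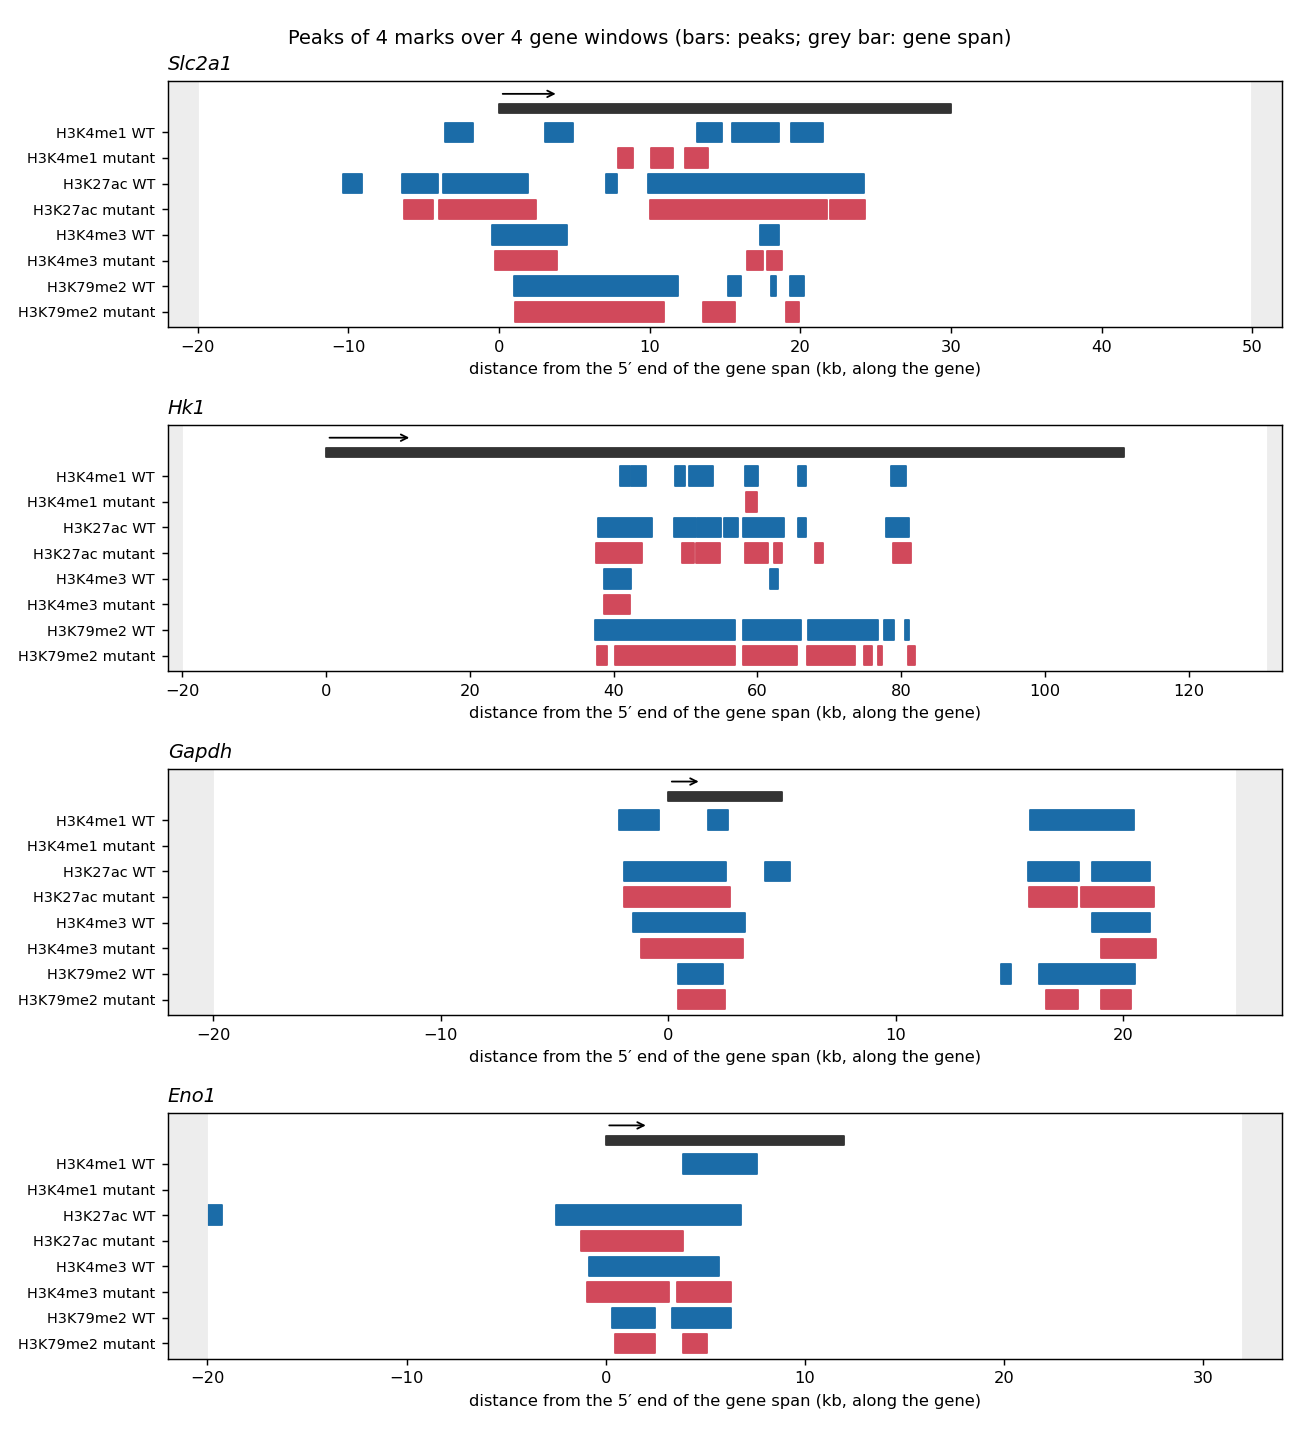
Peaks of 4 marks (rows, WT blue, mutant red) along Slc2a1, Hk1, Gapdh and Eno1, by distance in kb from the 5′ end of the gene span. The dark bar is the gene span, the arrow the direction of transcription, and the shaded edges lie beyond the 20 kb flanks. At Hk1 no peak lies before 37 kb, ahead of the second start at 39.5 kb, and the H3K4me1 rows of the mutant are empty at Gapdh and Eno1.

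The windows held 32 WT H3K4me1 peaks, and 27 of them (84.4%, exact Clopper-Pearson 95% interval 67.2 to 94.7) had no mutant peak, against 77.0% of the WT list. These intervals cover counting error only, and peaks of 1 gene are not independent. Of the 12 in the strongest 25% of the WT list by score, 10 had no mutant peak (83.3%, 51.6 to 97.9), against 50.5% of that class. Among the 9 from the strongest 10 to 25% it was 8, against 63.2% of that class. Among the 10 from 25 to 50% it was 9, against 79.2%, and among the 10 in the weaker 50% it was 8, against 89.1%. In the list this share rose from the strong to the weak peaks, and each class holds only 9 to 12 peaks in the windows. The WT H3K4me1 list was also cut to its 5358 strongest peaks, the number in the full mutant list. Of the 16 WT peaks left in the windows, 14 had no mutant peak (87.5%, 61.7 to 98.4). The share in the cut WT list was 57.0%. This overlap count on the cut list was chosen after seeing the data. The H3K4me1 ratio was then 0.277 in the windows and 0.569 over the lists.

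The 3 WT peaks with the highest scores were at Eno1, Gapdh and Pfkp. The Eno1 peak, on chromosome 4 from 149614875 to 149618623, had a score of 941 that 1.58% of the WT H3K4me1 list reached. The nearest mutant H3K4me1 peak was 24073 bp away. The Gapdh peak, on chromosome 6 from 125095531 to 125100094 (4564 bp, score 922), lay 15.9 to 20.5 kb from the 5′ end, beyond the end of the gene. No mutant H3K4me1 peak was found within 45132 bp of it. Both belong to the strongest 10% of the WT list, where 31.5% of peaks had no mutant peak (2 of 3 in the windows). The third of these, inside Pfkp on chromosome 13 from 6631061 to 6636625 (5565 bp, score 886), overlapped a mutant peak of 1331 bp.

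The other 8 strong WT peaks without a mutant peak were spread over 4 genes. Slc2a1 had 4, starting at -3.60, 3.08, 15.44 and 19.40 kb from the 5′ end, with mutant H3K4me1 1601 to 9653 bp away. Hk1 had 2, from 50.46 to 53.82 kb and from 78.52 to 80.66 kb. Hk2 had 1 beyond its 3′ end and Pfkp 1 from 4.81 to 6.56 kb. Mutant H3K4me1 peaks without a WT peak numbered 4 of 9 (27.9% of the mutant list), 2 in Slc2a1 and 1 each at Pfkp and Pgam1. The Slc2a1 pair lay from 7.92 to 8.92 kb and from 10.07 to 11.57 kb, between WT H3K4me1 peaks. The mutant Pfkp peak lay 688 bp from WT H3K4me1.

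**Figure D3:**
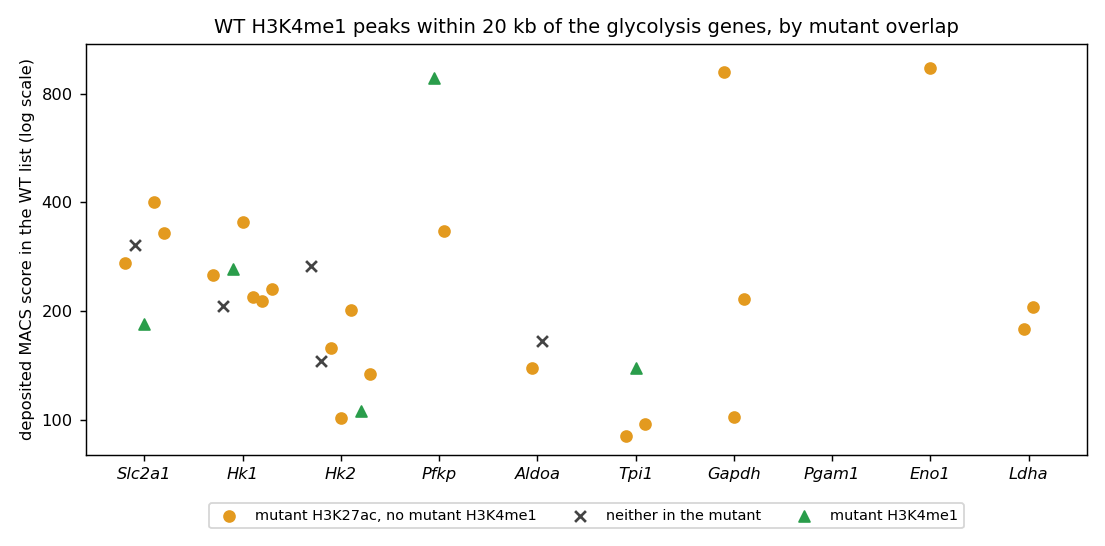
Each point is a WT H3K4me1 peak within 20 kb of a gene (x axis), at its deposited MACS score in the WT list on a log scale. Green triangles overlap a mutant H3K4me1 peak (5 peaks), orange circles a mutant H3K27ac peak but no mutant H3K4me1 (22), and crosses neither (5). Pgam1 has no point.

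H3K27ac was present in the mutant list at most sites where the H3K4me1 peak was missing. Of the 27 WT H3K4me1 peaks without a mutant one, 22 overlapped mutant H3K27ac (81.5%, 61.9 to 93.7), against 50.1% in the WT list. The same number, 22 of 27, overlapped WT H3K27ac, against 51.2%, though not all were the same peaks. Of all 32 WT H3K4me1 peaks, 27 overlapped WT H3K27ac (57.2% of the list), 21 H3K79me2 (47.3%) and 12 H3K4me3 (24.1%). Among the 22 peaks without mutant H3K4me1 that had WT H3K27ac, 21 had mutant H3K27ac (95.5%, 77.2 to 99.9), and the share in the list was 84.2%. The exception was a 1164 bp peak inside Hk1. A 1309 bp peak inside Hk2 went the other way, with mutant H3K27ac over its whole length and none in WT. At the Gapdh site mutant H3K27ac covered 4411 of 4564 bp, and at the strong Hk1 site 3077 of 3355 bp. The mutant H3K27ac peaks at the Gapdh site had scores reached by 76.8% and 85.1% of their list, and the WT peaks by 39.5% and 56%. At the Hk1 site these shares were 20.7% and 52.4% in the mutant and 21.4% and 25.1% in WT. H3K4me3 also covered 1845 bp of the Gapdh site in WT and 1442 bp in the mutant. RefSeq lists Nop2, Iffo1 and Ncapd2 within 20 kb of Gapdh. At the Eno1 site mutant H3K27ac covered 27 bp, where WT H3K27ac had covered 2945 bp. H3K4me3 covered 1831 bp of that site in WT and 2444 bp in the mutant.

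H3K27ac covered 149680 bp of the windows in WT and 129354 bp in the mutant, a ratio of 0.864, against 1.02 over the lists. It was shorter in the mutant at 8 genes and longer at Hk2 and Ldha. The direction of single genes depended on the window, since in the spans alone the mark was longer in the mutant at Aldoa (3162 and 3268 bp) and Tpi1 (1827 and 1835 bp) and shorter at Ldha (6128 and 5989 bp). No gene reached a 2-fold difference, and 11.9% of tiles had at most 0.5 times the WT length and 4.51% at least 2 times. The median gene ratio was 0.845 and the median tile ratio 0.977. Eno1 lay just outside the 2-fold limit, with 10006 bp in WT cells and 5132 bp in mutant cells, a ratio of 0.513. Its WT peak ran from -2.49 to 6.82 kb around the 5′ end, and the mutant peak from -1.23 to 3.90 kb. Length does not give peak strength. The H3K27ac peak nearest the start ranked lower by score within its list in the mutant, except at Aldoa and Ldha. At Pfkp its score was reached by 19.5% of the WT list and 54.8% of the mutant list. These shares were 5.45% and 15.4% at Eno1, and 7.23% and 15.9% at Pgam1. They were 1.94% and 1.72% at Aldoa, and 12.1% and 1.32% at Ldha.

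As a share of its window, WT H3K27ac ran from 9.08% at Pfkp to 34.9% at Slc2a1, with 17.2% at Hk1, whose window is the longest. At Slc2a1 it covered 24410 bp in WT cells and 22360 bp in mutant cells. Most of this was an intragenic block, a single peak of 14374 bp in WT, and 2 peaks of 11743 and 2267 bp in the mutant. Hk1 had 25936 bp in WT cells and 19283 bp in mutant cells. Hk2 had 14547 and 15972 bp, and Ldha 11829 and 13118 bp. The Ldha peak at the 5′ end was 10812 bp long in WT and was listed as 6838 and 3881 bp in the mutant. Among the others, Pgam1 had 14172 bp in WT cells and 11475 bp in mutant cells, Tpi1 14049 and 11513 bp, and Aldoa 14430 and 12142 bp. Gapdh had 10405 and 9965 bp, and Pfkp 9896 and 8394 bp. Of 48 WT H3K27ac peaks 11 had no mutant peak (22.9%, 12.0 to 37.3), close to the 24.1% of the list, and none of these 11 was in the strongest 25% by score. Of 44 mutant peaks 6 had no WT peak, against 18.4% of the list.

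**Figure D4:**
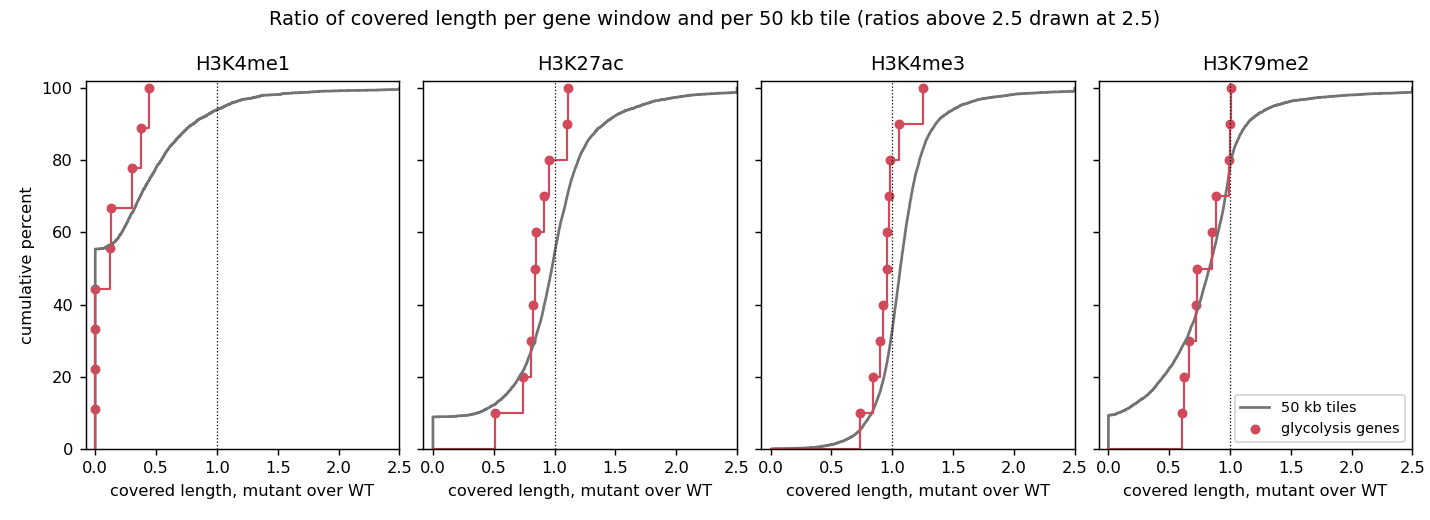
Cumulative percent of gene windows (red points) and of 50 kb tiles holding H3K4me3 in both genotypes (grey line) by mutant over WT ratio of covered length, for 4 marks. H3K4me1 has 9 genes, since Pgam1 has no WT peak, and the dotted line marks equal length. The median gene and the median tile are 0.119 and 0 for H3K4me1, 0.845 and 0.977 for H3K27ac, 0.959 and 1.07 for H3K4me3, and 0.789 and 0.831 for H3K79me2.

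Summed over the genes, H3K79me2 lay mostly inside the spans, with 108955 bp there in WT and 94731 bp in the mutant. At Aldoa, Tpi1, Gapdh and Pgam1, however, most of its length lay outside the span in both genotypes. In WT the spans held 3387 of 8646 bp at Aldoa and 2684 of 7720 bp at Tpi1. They held 1998 of 6645 bp at Gapdh and 5160 of 11488 bp at Pgam1. At Slc2a1, Hk1, Hk2, Pfkp, Eno1 and Ldha all of it lay inside the span. In total H3K79me2 covered 130225 bp of the windows in WT and 113366 bp in the mutant, a ratio of 0.871, near the 0.824 of the lists. No gene reached a 2-fold difference, against 21.8% of tiles with at most 0.5 times and 4.01% with at least 2 times the WT length. Gene ratios in the windows ran from 0.606 at Ldha to 1.01 at Pgam1. The place of Pgam1 depended on peaks beyond the gene, since its span alone gave 5160 and 4231 bp, a ratio of 0.820. From 19.89 to 27.04 kb from its 5′ end lay a mutant peak of 7148 bp, over WT peaks of 4654 and 1569 bp. Gapdh went the other way, with a ratio of 0.726 in the window and 1.03 in the span. Over the whole window Pgam1 had 11488 bp in WT cells and 11546 bp in mutant cells, Hk2 22986 and 23068 bp, and Slc2a1 13014 and 12928 bp. Ldha (3010 and 1823 bp), Eno1 (5158 and 3220 bp) and Pfkp (12398 and 8213 bp) had the lowest ratios.

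Single H3K79me2 peaks were read by the longest one over each gene. Hk1 had a WT peak of 19422 bp, from 37.45 to 56.87 kb, and a mutant peak of 16632 bp, from 40.20 to 56.83 kb. At Hk2 the longest peak was 9298 bp in WT cells and 20119 bp in mutant cells, though the total cover was about equal. Over that stretch the WT list has peaks of 9298 and 7688 bp and 1 shorter peak. At Slc2a1 the peaks reached from about 1 kb to 11.88 kb in WT and 10.97 kb in the mutant. Pgam1 had the highest −log10 q of these peaks in each list, 13.9 in WT and 10.7 in the mutant, with widths of 5160 and 4231 bp. At Ldha the longest peak was 1890 and 1823 bp wide. Of 39 WT H3K79me2 peaks 8 had no mutant peak (20.5%, 9.30 to 36.5), against 36.8% of the list. Of 33 mutant peaks 1 had no WT peak (15.3% of the list).

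H3K27me3 peaks were few at these genes. The WT list had no peak in any window, and the mutant list had 3, over 2361 bp, 849 bp at Slc2a1 and 1512 bp at Aldoa. With a −log10 q of at least 5, or with 5 kb flanks, the mutant list had 0 bp, and with 50 kb flanks WT had 22935 bp and the mutant 38611 bp. At least 2 times the WT length was seen in 28.3% of tiles with the mark, and at most 0.5 times in 15.3%. None of the 3 overlapped a WT peak, as for 49.9% of the mutant list, and none touched a gene span. The Slc2a1 peak lay 42.5 to 43.4 kb from the 5′ end, beyond the gene, and the Aldoa peaks from -14.34 to -13.28 and from -19.38 to -18.93 kb, upstream of the gene. No other mark had a peak over these 3 sites in either genotype.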

How the data were processed

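Peaks were analysed as the authors deposited them, 1 list per library. The submitters' processing notes name Bowtie, MACS, MACS2, deepTools and mm9, with no versions or roles. H3K4me1, H3K27ac and H3K4me3 lists give a deposited score per peak that reads as 10 times the −log10 p, the lowest being 90. The authors' H3K79me2 and H3K27me3 lists are MACS2 broad peaks with a score, a fold enrichment (ratio), and −log10 p and −log10 q values per peak. Scores were used only within a list, apart from the stricter thresholds, which set the same cutoff for both genotypes. Read depth is unknown, which limits every comparison between lists, and a missing peak means only that none passed the authors' threshold. The 2 inputs and the sixth mark named in the series text were not analysed here.

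Covered bp were counted in each gene span plus 20 kb on both sides. Peaks overlapping by at least 1 bp were shared. A gene or tile was called at a 2-fold difference. Strand, starts and neighbours came from RefSeq (GRCm38.p6), as did the promoter sequences with their CpG, GC and motif counts. Coordinates of that build were not used directly, but distances of RefSeq starts into the gene were set beside distances of peaks into the mm9 span. Such distances are approximate, since gene and span can differ in length, as at Slc2a1 (28586 and 30000 bp). Other glycolysis genes, cell type markers and Kmt2d itself were not examined, since no gene table on mm9 was used here. All 10 members were named. The rule for naming peaks took the H3K4me3 and H3K27ac peaks nearest the start, the longest H3K79me2 peak over the span, H3K4me1 peaks within 5 kb of the span, unshared H3K4me1 and H3K27ac peaks in the strongest 25% of their list, and all H3K27me3 peaks. Not all of these are given. The H3K27ac peak nearest the start is described by length only at Eno1 and Ldha, with its rank there and at Pfkp, Pgam1 and Aldoa. The longest H3K79me2 peak is described only at Hk1, Hk2, Slc2a1, Pgam1 and Ldha, and some H3K4me1 peaks enter only as counts and lengths. Outside this rule, and chosen after their values were seen, are the H3K4me1 peaks of Aldoa and Pgam1, the unshared H3K4me3 peaks, the H3K27ac peaks inside Slc2a1, and other single peaks given to account for a length. So are the H3K27ac ranks at the Gapdh and Hk1 H3K4me1 sites. The members, lists and rules were chosen with earlier results of these data known. Overlaps were computed in Python 3.11.15 with numpy 2.4.6, intervals with scipy 1.17.1 and plots with matplotlib 3.10.9. The overlap code was tested on simulated intervals.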

Additional observations from a re-analysis of the deposited data

How the results depend on the processing

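The ratios of H3K27ac, H3K4me3 and H3K79me2 kept their direction and stayed within 1.5 times of the values given, with other flanks, stricter thresholds, merged peaks, lists of equal length, whole peaks and each gene left out. Leaving out 1 gene gave 0.146 to 0.214 for H3K4me1, 0.839 to 0.890 for H3K27ac, 0.924 to 0.966 for H3K4me3 and 0.842 to 0.892 for H3K79me2. The H3K4me1 ratio fell to 0.0301 with a MACS score of at least 200, where 1331 bp were left in the mutant, and the list ratio was then 0.180. It was 0.226 in the spans alone. The H3K27me3 length in the mutant was 0 bp with no flank, with 5 kb and with a −log10 q of at least 5. It was 38611 bp with 50 kb, where WT had 22935 bp, 1512 bp without Slc2a1 and 849 bp without Aldoa. Shares of unshared peaks stayed within their intervals with 50% cover, or a peak within 1000 bp, required. With 50% cover 13 of 39 WT and 5 of 33 mutant H3K79me2 peaks had no counterpart, and with 1000 bp 7 of 48 WT and 3 of 44 mutant H3K27ac peaks. Of 115 gene ratios with other flanks 4 moved by over 1.5 times or away from 0, and 18 lay on the other side of 1 from the value with 20 kb, all within 1.5 times of it and none for H3K4me1. Tpi1 H3K4me1 was 0.977 in its span alone. No paired analysis was possible because each group has 1 library.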
